A study of Mus musculus with 20 samples.

Results

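Rn45s, Lars2, Lrrc58, Malat1 and 4930488L21Rik are 5 of the 23845 gene rows in a brain RNA-seq table. They were chosen by name, because earlier results of these data showed them to be high in the later-numbered libraries. Every level and fold change of these 5 transcripts is therefore a description, and no difference between libraries above and up to 10 or between genotypes carries a test for them. The 20 libraries came from mouse brain, labelled strain C57/Bl6J, in 7 genotype groups: J17b with 2 libraries, and J27a, J27b, J17a, J1 lf/lf, J2 lf/lf and Wild type with 3 each. All mice were on a normal diet, no age or sex is stated, and the series concerns animals lacking single isoforms of JNK, a stress-activated kinase. The labels do not spell out the genotype codes or say whether the named form was removed or kept. They also do not state that replicates are separate animals, which means that a p-value here reflects spread among these 20 libraries and no more.

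Each sample title also carries a running number from 1 to 21, with 14 absent. The 10 libraries numbered above 10 are all those of J17b, J27a and J27b and replicates 2 and 3 of J17a. The 10 numbered up to 10 are replicate 1 of J17a and all those of J1 lf/lf, J2 lf/lf and Wild type. The labels do not say what the number stands for. Apart from J17a, number and genotype cannot be told apart.

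Rn45s is the precursor of the ribosomal RNAs. RNA polymerase I transcribes it in the nucleolus, and it is cleaved into the RNAs of the small and large ribosomal subunits, which carry no poly(A) tail of the mRNA kind. Its sequence holds those RNAs, so counts in the Rn45s row cannot tell the precursor from the cleaved RNAs. Malat1 is an abundant long noncoding RNA of nuclear speckles; its 3′ end is made by RNase P cleavage and is protected by a triple helix in place of a poly(A) tail. Lars2 encodes the mitochondrial leucyl-tRNA synthetase, which charges tRNA for translation inside mitochondria. Lrrc58 encodes a leucine-rich repeat protein, and 4930488L21Rik is annotated as an antisense RNA. The libraries were enriched for poly(A) RNA, so the level of an untailed RNA here depends on what passed that step.

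On genome build GRCm38 in GENCODE, Lars2 lies on chromosome 9 from 123366927 to 123462666 on the plus strand, and Lrrc58 on chromosome 16 from 37868389 to 37888858 on the plus strand. Malat1 lies on chromosome 19 from 5795690 to 5802672 on the minus strand, in 1 exon. The antisense gene 4930488L21Rik lies on chromosome 8 from 93750147 to 93813722 on the minus strand. It overlaps Gnao1, which encodes a G-protein alpha subunit, by 3757 bases on the opposite strand. Whether counting used the strand is not stated, so reads in that stretch cannot be assigned to either gene; Gnao1 itself stood at 610 ± 17.96 CPM above 10 and 610.5 ± 15.6 CPM up to 10 (SD, n = 10 each). No position was looked up for Rn45s, which has no entry under that symbol in the annotation used.

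The longest runs of adenine in the 4 annotated transcripts are shown because an oligo(dT) step binds such runs. They were read from the GENCODE transcripts, with the run in capitals.
Lars2: tgttaacgtgggAAAAAAggcaaacatcag
Lrrc58: acaccttaccAAAAAAAAAAAtctagatga
Malat1: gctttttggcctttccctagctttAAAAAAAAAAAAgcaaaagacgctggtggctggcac
4930488L21Rik: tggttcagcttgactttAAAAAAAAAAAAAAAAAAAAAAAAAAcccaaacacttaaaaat
The run of 26 in 4930488L21Rik ends 69 bases before the transcript's 3′ end, and 0.6% of tested genes have a run as long. The run of 12 in Malat1 ends 298 bases before the 3′ end, and 11.5% of genes have one as long. The 11 adenines of Lrrc58 were matched by 14.7% of genes and the 6 of Lars2 by 66.2%. Long internal runs are thus a feature of 4930488L21Rik but not of Lars2. Whether they bear on the levels was not tested.

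Lrrc58, Malat1 and 4930488L21Rik share a stretch of sequence. By BLASTN, 148 bases of Malat1 aligned to Lrrc58 on the opposite strand at 93.9% identity, and 87 of 4930488L21Rik to Malat1 on the same strand at 78.2%. The Malat1 stretch is printed with the part that aligned to 4930488L21Rik in capitals, followed by that part of 4930488L21Rik.
Malat1: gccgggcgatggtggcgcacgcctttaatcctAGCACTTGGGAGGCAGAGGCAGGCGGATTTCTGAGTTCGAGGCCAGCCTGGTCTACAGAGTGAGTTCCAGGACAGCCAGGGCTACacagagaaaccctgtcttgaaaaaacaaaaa
4930488L21Rik: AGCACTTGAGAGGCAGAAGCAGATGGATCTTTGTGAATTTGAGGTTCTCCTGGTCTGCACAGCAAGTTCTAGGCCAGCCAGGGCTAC
The stretch is common: 3581 other tested genes, 24.8% of those with a transcript, hold a match of at least 50 bases on either strand. Those genes had a median log2 fold change of 0.0032 between libraries above 10 and up to 10, against -0.0047 for the 10832 genes without a match. Lars2 holds no such match to Lrrc58, Malat1 or 4930488L21Rik. Of the 4 members with a transcript in the annotation, none matched the transcripts of the ribosomal RNA locus annotated on chromosome 17. The entry typed there as ribosomal RNA has 1849 bases, and the sequence of Rn45s itself was not searched. Whether a member resembles other parts of the precursor, such as the large-subunit RNA, could therefore not be checked.

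Levels are given as CPM, counts scaled to a common library total, with TMM factors. Library totals ran from 21761943 to 30569978 estimated counts above 10 and from 21395041 to 33828755 up to 10, and 16830 to 17291 and 16833 to 17283 genes had a value above 0. Depth therefore overlapped between the classes. In bulk tissue, fewer cells of a type and less RNA per cell cannot be told apart.

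Rn45s was the most abundant of the 5 and differed most. J17b had 23400.4 and 54698 CPM, J27a 30554, 20168.5 and 25660.2 CPM, and J27b 18239, 20550.1 and 18173 CPM. J17a had 18289.9 and 17321 CPM in replicates 2 and 3, and 6560.4 CPM in replicate 1. All of these except J17a replicate 1 lay above every remaining library: J1 lf/lf had 3066, 3570.5 and 5310.8 CPM, J2 lf/lf 5466, 6718 and 6619 CPM, and Wild type 4487, 6658 and 3582 CPM. The mean was 24705 ± 11326 CPM above 10 and 5204 ± 1442 CPM up to 10 (SD, n = 10 each). On the log2 scale the class means differed by 2.21, or 4.62-fold, and by 4.20-fold without J17b replicate 2. As a share of all counts, Rn45s took 1.73% to 5.33% of libraries above 10 and 0.310% to 0.676% of those up to 10. The lowest library above 10 was 2.58 times the highest up to 10.

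J17a is the only genotype on both sides of 10. Rn45s was 2.71-fold higher in its replicates 2 and 3 than in replicate 1, on the mean of log2 CPM. With 1 library on one side, that difference has no replicate check. J17a replicate 1, at 6560.4 CPM, lay within the range of the other libraries up to 10, which ended at 6718 CPM.

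Lars2 followed the same division of libraries. It had 411 and 1064 CPM in J17b, 542, 387 and 385 CPM in J27a, and 325, 389 and 385 CPM in J27b. In J17a it had 399 and 364 CPM in replicates 2 and 3 and 189.7 CPM in replicate 1. Every one of those 10 libraries above 10 exceeded the rest: Lars2 had 81.3, 125 and 132 CPM in J1 lf/lf brains, 151, 173 and 147 CPM in J2 lf/lf brains, and 149, 185 and 109.8 CPM in Wild type. The class means on the log2 scale differed by 1.64, or 3.11-fold, and by 2.82-fold without J17b replicate 2. Within J17a, replicates 2 and 3 were 2.01-fold higher than replicate 1.

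The other mitochondrial tRNA synthetases, a set of 16 tested genes that excludes Lars2, had 8 log2 fold changes above 0 and 8 below. Their median was -0.00014, against -0.0026 for all 15050 tested genes, and none passed edgeR's quasi-likelihood test at a Benjamini-Hochberg adjusted p under 0.05. The largest was that of Hars2, the mitochondrial histidyl-tRNA synthetase, at 0.10 (SE 0.068, adjusted p = 0.972). Of 19 tested cytosolic synthetases, 8 were above 0 and 11 below, none past the threshold, with a median of -0.008. The class difference of Lars2 was thus not seen across either synthetase list.

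Malat1 had 1749 and 4698 CPM in J17b, 3095, 1914 and 2331 CPM in J27a, and 1159, 1606 and 1653 CPM in J27b. J17a had 2145 and 1403 CPM in replicates 2 and 3 and 1130.2 CPM in replicate 1. The levels were 983, 593 and 1073 CPM in J1 lf/lf brains, 1147, 1038 and 1076 CPM in J2 lf/lf brains, and 919.9, 642 and 926 CPM in Wild type. The classes were separate by a hair, since the lowest library above 10 (J27b replicate 1) was 1.01 times the highest up to 10 (J2 lf/lf replicate 1). As a share of all counts the same pair overlapped, at 0.115% in J27b replicate 1 and 0.118% in J2 lf/lf replicate 1. The class means on the log2 scale differed by 1.11, or 2.15-fold, and by 1.96-fold without J17b replicate 2. Within J17a, replicates 2 and 3 were 1.54-fold higher than replicate 1.

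The antisense RNA 4930488L21Rik was rare, with 4 to 84 counts per library. It had 38 and 84 counts in J17b, 74, 33 and 47 in J27a, 29, 38 and 36 in J27b, and 21 and 26 in replicates 2 and 3 of J17a. Replicate 1 of J17a had 21 counts; J1 lf/lf had 10, 4 and 12, J2 lf/lf had 12, 10 and 28, and Wild type had 9, 13 and 20. The classes overlapped: J17a replicate 2, at 0.719 CPM, lay below J2 lf/lf replicate 3 at 0.867 CPM and Wild type replicate 3 at 0.793 CPM. Its class means on the log2 scale differed by 1.70, or 3.25-fold, and by 2.91-fold without J17b replicate 2. Within J17a the difference was 1.15-fold, on 21 and 26 counts against 21.

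Lrrc58 differed least. It had 193 and 224 CPM in J17b, 199, 186 and 186 CPM in J27a, 181, 188 and 181 CPM in J27b, and 195 and 169 CPM in replicates 2 and 3 of J17a. Replicate 1 of J17a had 164 CPM; J1 lf/lf had 139, 145 and 152 CPM, J2 lf/lf 152, 161 and 159 CPM, and Wild type 149.5, 158 and 189.8 CPM. Wild type replicate 3 stood above 6 of the 10 libraries above 10, and no other library up to 10 reached the lowest of them. The class means on the log2 scale differed by 0.28, or 1.21-fold, and by 1.19-fold without J17b replicate 2. Within J17a the difference was 1.10-fold.

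**Figure D1:**
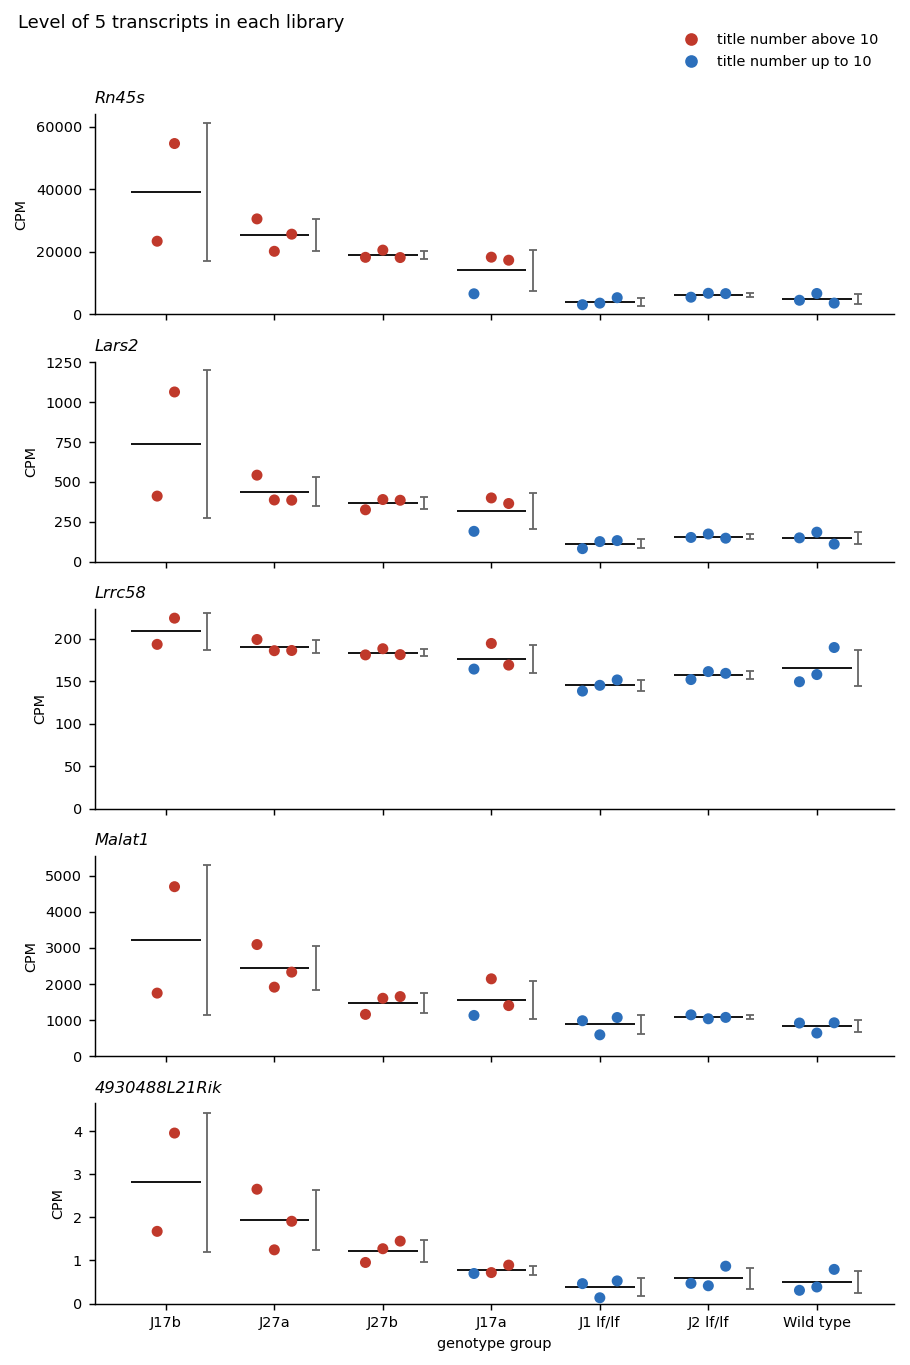
Level in CPM (linear axes from 0) of each transcript in each library, by genotype group, with red points for title numbers above 10 and blue for up to 10; black lines are group means and grey bars 1 SD (n = 2 in J17b, 3 elsewhere). Rn45s and Lars2 separate by colour over all groups. Within J17a the 1 blue point is the lowest for every transcript, by a small margin for Lrrc58 and 4930488L21Rik. Lrrc58 ranges only from 139 to 224 CPM.

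Over the 5 transcripts, the libraries of the 2 classes did not overlap for Rn45s, Lars2 and Malat1 in CPM. Across the table, 6 of 15050 tested genes (0.0399%) were higher above 10 without overlap, these 3 among them, and 0 were lower. By the edgeR test 24 genes (0.159%) were higher at an adjusted p under 0.05 and 0 (0%) lower. At an unadjusted p under 0.05 by the same test, 347 (2.31%) were lower, fewer than were higher. DESeq2 called 45 higher and 5 lower. Leaving out 1 library moved the 24 to between 10 and 39. The members were chosen on this contrast, so their place in it is no finding.

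Set against Wild type by genotype, the 4 isoform lines stood above it for each transcript, with Wild type as the shared control. J17b has 2 libraries, and its values rest on replicate 2, so the fold of replicate 1 alone is given as well. For Rn45s the mean CPM was 7.95-fold that of Wild type in J17b, 5.19-fold in J27a, 3.87-fold in J27b and 2.86-fold in J17a, which overlapped Wild type through its replicate 1. Lars2 was 4.99-fold, 2.97-fold, 2.48-fold and 2.15-fold in the same order, with no overlap. Malat1 was 3.89-fold, 2.95-fold, 1.78-fold and 1.88-fold, again with none. J17b replicate 1 alone stood at 4.77-fold for Rn45s, 2.78-fold for Lars2 and 2.11-fold for Malat1, each below the mean of J27a, so the first place of J17b came from replicate 2. The libraries of J27b and J17a overlapped for all 3 transcripts.

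For 4930488L21Rik the mean was 5.69-fold that of Wild type in J17b, 3.92-fold in J27a, 2.48-fold in J27b and 1.56-fold in J17a, which overlapped Wild type. J17b replicate 1 alone was 3.39-fold, below J27a. Lrrc58 was 1.26-fold in J17b without overlap (1.17-fold in its replicate 1), and 1.15-fold in J27a, 1.11-fold in J27b and 1.06-fold in J17a with overlap. J1 lf/lf lay between 0.756-fold for 4930488L21Rik and 1.06-fold for Malat1, overlapping Wild type throughout. J2 lf/lf lay between 0.951-fold for Lrrc58 and 1.31-fold for Malat1. That last difference, 1087 ± 55.3 CPM against 829.45 ± 162 CPM (SD, n = 3 each), was the only one of J1 lf/lf or J2 lf/lf whose libraries did not overlap those of Wild type.

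Among all genes, an edgeR test for any difference among the 7 genotype groups called 14 of 16063 (0.0872%). Within the libraries above 10 alone it called 28 of 15743 (0.178%), and within those up to 10 alone 1 of 16127 (0.0062%). The 14 include Rn45s, Lars2 and 4930488L21Rik, which were chosen from earlier results of these data, so their place there is no finding.

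Per length, the order of the 5 was the same in all 20 libraries. In TPM, which scales for transcript length, Rn45s stood at 10241 ± 4951 above 10 and 2140.3 ± 571 up to 10, Malat1 at 747 ± 374 and 326 ± 65.5, and Lars2 at 298 ± 147 and 91.8 ± 20.9 (SD, n = 10 each). Lrrc58 followed at 52.4 ± 4.8 and 43.3 ± 4.88 TPM, and 4930488L21Rik at 2.46 ± 1.49 and 0.741 ± 0.336 TPM. Each exceeded the next in 20 of 20 libraries. The ratios between them were not constant. Rn45s was 29.6 to 43.0 times Lars2 in TPM above 10 and 18.4 to 29.1 times up to 10, without overlap, so the Rn45s row differed by more than Lars2 between the classes. It was 10.3 to 19.01 times Malat1 above 10 and 3.76 to 12.5 times up to 10. Against 4930488L21Rik the ratios overlapped widely, from 3241 to 7198 above 10 and from 1282 to 7417 up to 10.

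**Figure D2:**
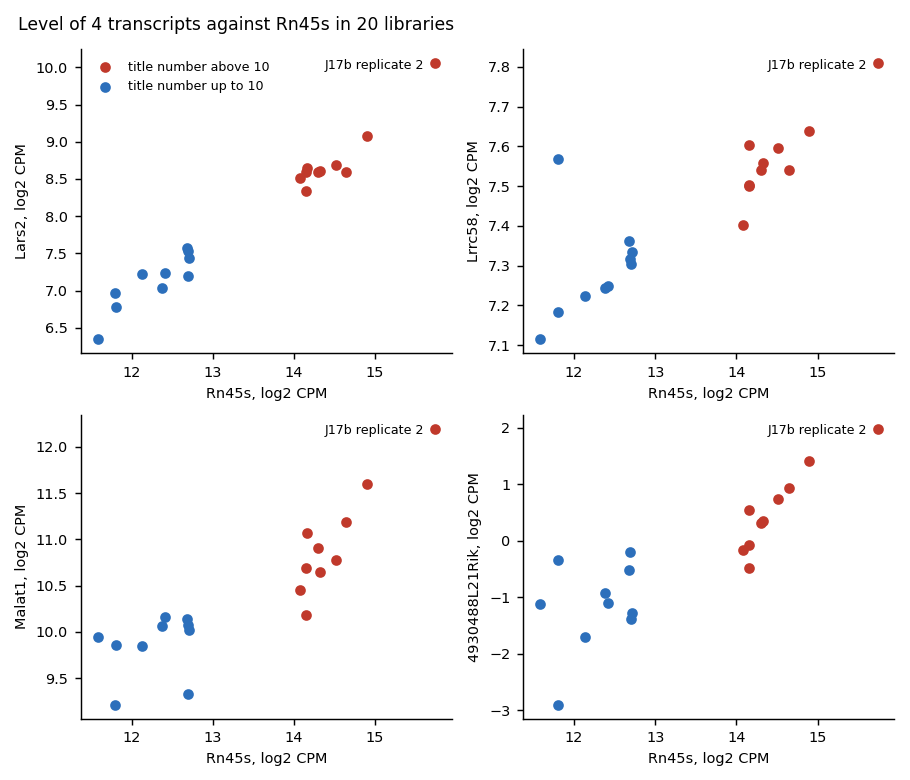
Level of Lars2, Lrrc58, Malat1 and 4930488L21Rik against that of Rn45s, both in log2 CPM, with 1 point per library (red for title numbers above 10, blue for up to 10). The 2 classes form separate clusters along Rn45s, and J17b replicate 2 is highest on every axis.

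Within each class the transcripts can be set against Rn45s without the step between classes, though each class still mixes genotypes. Lars2 tracked Rn45s in both: Pearson r of log2 CPM was 0.95 over the 10 libraries above 10 and 0.89 over the 10 up to 10, with Spearman rank correlations of 0.81 and 0.82. For the other 3, r was lower up to 10 than above. Malat1 had r = 0.91 above 10 and 0.28 up to 10 (Spearman 0.81 and 0.35), Lrrc58 0.89 and 0.22 (0.83 and 0.58), and 4930488L21Rik 0.92 and 0.34 (0.83 and 0.16). For Lrrc58 the rank correlation up to 10 thus stood well above r. All points share library depth and the composition of the library, so these r are a description only. J17b replicate 2 raised those above 10: without it, r over 9 libraries was 0.79 for Lars2, 0.79 for Malat1, 0.67 for Lrrc58 and 0.90 for 4930488L21Rik.

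The genes most like Rn45s were ranked by Pearson r of log2 CPM centred within the class, over 20 libraries and 13084 genes with a mean of at least 1 log2 CPM. Lars2 came first, with r = 0.92, and stayed first without J17b replicate 2 at r = 0.86. The next were Ryr1, a calcium release channel, at 0.85, Arhgap17 at 0.84, Spen, a transcriptional repressor, at 0.83, and Sec16a, a protein of endoplasmic reticulum exit sites, at 0.83. Atxn1l at 0.83, Tob2 at 0.82 and the DNA methyltransferase Dnmt3a at 0.81 completed the first 8. Without J17b replicate 2, Arhgap17 ranked 3, Tob2 4, Atxn1l 13, Ryr1 18, Sec16a 56, Spen 79 and Dnmt3a 198. Centred within genotype and class, Lars2 ranked 1, Arhgap17 6, Atxn1l 16, Spen 30, Ryr1 52, Tob2 76, Dnmt3a 85 and Sec16a 111.

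Malat1 ranked 45 of 13084 by this measure, at r = 0.69, and Lrrc58 ranked 248, at 0.56. Both ranks rested on J17b replicate 2, without which Malat1 fell to rank 1526 at r = 0.47 and Lrrc58 to rank 2945 at r = 0.33. The rare 4930488L21Rik had r = 0.66, and 0.51 without that library, and was below the level set for ranking. Centred within genotype and class, r was 0.90 for Lars2, 0.50 for Malat1 (rank 605), 0.30 for Lrrc58 (rank 2339) and 0.35 for 4930488L21Rik. With Spearman rank correlation over all 20 libraries, centred within the class, Lars2 ranked 3, Lrrc58 203 and Malat1 212. Lars2 is thus the one member that stayed close to Rn45s under each of these.

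J17b replicate 2 was the highest of 20 libraries for each of the 5 transcripts. It was also the lowest of 20 in the summed CPM of 8 neuron markers, at 6264 CPM, where the others above 10 reached 7300 CPM and those up to 10 ran from 6416 to 7022 CPM. Its summed ribosomal protein genes, at 10955 CPM, and its summed ribosomal RNA processing genes, at 1844 CPM, were the lowest of 20 too, with 10959 to 12529 CPM and 1877 to 1967 CPM up to 10. Its 5 choroid plexus markers summed to 1485 CPM, second of 20, within the 322 to 1786 CPM seen up to 10. Its 15 stress response genes, at 542 CPM, were the lowest of 20 as well, and its long noncoding RNAs other than Malat1, at 4450.0 CPM, second highest. Astrocyte, oligodendrocyte, microglia, endothelial, red blood cell and pituitary markers in it were neither the highest nor the lowest. The same held for the remaining tested lists. Counted from the highest of 20, it ranked 16 for RNA polymerase I transcription, 13 for mitochondrial and 17 for cytosolic tRNA synthetases. For histone genes it ranked 8, and for nuclear speckle and paraspeckle proteins 6. The part of these lists in the levels of the 5 transcripts was not tested.

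Between all libraries above and up to 10, none of the 8 marker lists had a member past the threshold by edgeR. Of the tested markers, 3 of 8 neuron, 2 of 6 astrocyte, 4 of 6 oligodendrocyte, 2 of 6 microglia, 4 of 5 endothelial, 0 of 5 choroid plexus, 3 of 4 red blood cell and 0 of 3 pituitary genes had a log2 fold change above 0. The summed CPM of each list overlapped between the classes. The largest differences were in pituitary hormones, with Pomc at -3.42 (SE 1.39, adjusted p = 0.828) where DESeq2 gave an adjusted p of 0.00185, and Gh at -2.85 (SE 1.73, adjusted p = 0.969). The pituitary list summed to 0.376 to 641 CPM above 10 and 1.36 to 3067 CPM up to 10, so single libraries set these values. Neuron and oligodendrocyte markers summed to at least 6264 and 5029 CPM in every library, which fits the brain label.

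No gene of the machinery that makes and processes ribosomal RNA passed the threshold by edgeR or DESeq2. None of 20 tested genes of RNA polymerase I transcription did; 8 were above 0 and 12 below, with a median log2 fold change of -0.0041. None of 51 genes of ribosomal RNA processing passed it either, 16 above 0 and 35 below, with a median of -0.024. Exosc3, an RNA exosome subunit, was lowest at -0.20 (SE 0.079, adjusted p = 0.767). Of 79 cytosolic ribosomal protein genes 16 were above 0 and 63 below, with a median of -0.049. None of the 79 passed the adjusted threshold by edgeR, while 15 (19%) were lower at an unadjusted p under 0.05, against 2.31% of all tested genes, and 0 were higher. Rps10, a small-subunit protein, came nearest: 99.4 ± 5.71 CPM above 10 and 115 ± 9.07 CPM up to 10 (SD, n = 10 each), a difference of -0.20 on the log2 scale (SE 0.045, adjusted p = 0.0654 by edgeR). It passed by DESeq2 (adjusted p = 0.00969) and by edgeR without Wild type replicate 3 (adjusted p = 0.00148). Short transcripts tended to be lower in general. Tested genes with a longest transcript of up to 1000 bases had a median log2 fold change of -0.037, with 35.9% above 0. The part of transcript length in the values of the 79 was not tested.

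Other long noncoding RNAs, nuclear ones and hosts of small RNAs, were set beside Malat1. Of 25 tested, 15 had a log2 fold change above 0 and 10 below, none past the threshold by edgeR, with a median of 0.014. Kcnq1ot1, the noncoding RNA of an imprinted domain, was 44.1 ± 26.04 CPM above 10 and 21.1 ± 5.41 CPM up to 10 (SD, n = 10 each). Its log2 fold change of 1.07 (SE 0.28) came with an adjusted p of 0.272 by edgeR and 0.0263 by DESeq2. Of 26 nuclear speckle and paraspeckle proteins, which Malat1 is found beside, 6 were above 0 and 20 below with a median of -0.022, none past the threshold. The same held for 15 stress response genes, 7 above 0 and 8 below, and for 10 tested replication-dependent histone genes, 3 above and 7 below. Histone mRNAs end in a stem-loop in place of a tail, and their summed CPM ran from 69.1 to 98.4 above 10 and from 76.8 to 105 up to 10.

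Small RNAs without a tail were almost not counted. Of 16 such rows, which include Rmrp and Rpph1, the RNA parts of RNase MRP and RNase P, 10 were at 0 in all 20 libraries, and the highest count was 34, for Rpph1. None was abundant enough to test. Rn45s had 66295 to 1160828 counts in the same libraries. The 16 rows are of small RNAs, so they do not show how much of a long untailed RNA passed the enrichment.

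**Figure D3:**
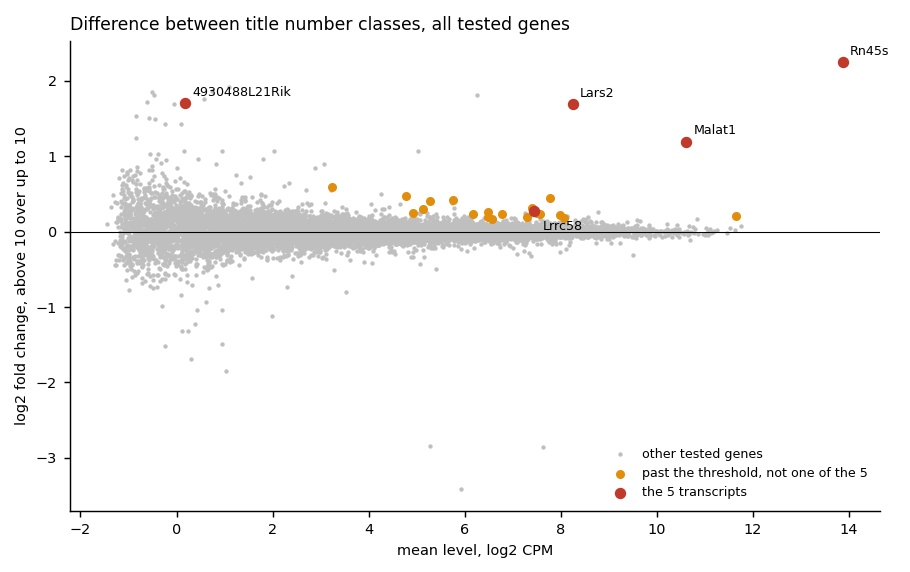
Log2 fold change between title numbers above 10 and up to 10 (vertical) against mean level in log2 CPM (horizontal) for 15050 tested genes, from the edgeR fit. The 5 transcripts are red, the 19 other genes past the threshold orange; Rn45s, Lars2, Malat1 and 4930488L21Rik lie above 1, Lrrc58 lies among the orange points, and the rest centre on a median of -0.0026.

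Apart from the 5 members, 19 genes were higher above 10 by the edgeR test, with log2 fold changes between 0.16 for Armcx4 and 0.59 for Lingo4. The 3 of them whose libraries did not overlap were Tcp11l1, Hipk2 and Dpysl2. Tcp11l1 was 44.0 ± 3.38 CPM above 10 and 33.1 ± 3.75 CPM up to 10, with a log2 fold change of 0.41 and SE of 0.060 (adjusted p = 0.00157, edgeR). Dpysl2, which encodes a microtubule-binding protein of growing axons, was 198 ± 11.2 CPM above 10 and 167 ± 12.2 CPM up to 10, at 0.25 (SE 0.043, adjusted p = 0.0081, edgeR). Hipk2, a nuclear protein kinase, was 97.04 ± 12.3 CPM above 10 and 80.8 ± 4.75 CPM up to 10, at 0.26 (SE 0.056, adjusted p = 0.0481, edgeR), a call that was lost in 23 of 28 alternatives. Each SD is over 10 libraries. The others included Grin2b, an NMDA receptor subunit, at 0.45, Tnrc6b, a protein of miRNA silencing, at 0.32, and Slc1a2, the astrocyte glutamate transporter, at 0.21. All 19 differences are smaller than those of Rn45s, Lars2, Malat1 and 4930488L21Rik. They lie on both sides of that of Lrrc58, which is 0.28 by the same fit. None of the 19 passed the threshold when genotype was a term in the fit, which leaves only the libraries of J17a to carry the contrast. Their log2 fold changes were then 0.12 to 0.81, all 19 above 0, with a median of 0.27, against 0.24 without the term. The J17a libraries were also part of the contrast that picked the 19, and all share J17a replicate 1. The shared sign is therefore no separate check.

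These genes shared a feature that was looked at after their values were seen. The 19 had a median longest transcript of 8803 bases, against 3443 over the tested genes with a transcript, and 18 of the 19 were longer than that median. Over all genes, the median log2 fold change was -0.037 for transcripts up to 1000 bases and 0.057 for those over 10000 bases, with 35.9% and 79.6% of genes above 0. Among the members, Lrrc58 at 8604 bases is longer than 95.3% of tested genes and Malat1 at 6983 longer than 90.5%, while Lars2 at 3894 and 4930488L21Rik at 3244 bases are of middling length. The median difference between the longest and shortest transcripts (over 8000 and up to 2000 bases) ran, per library, from -0.043 to 0.22 on the log2 scale above 10 and from -0.17 to 0.22 up to 10. The classes overlapped, and the highest were Wild type replicate 3 and J17b replicate 2, which were also the highest libraries of Lrrc58 in their class. The part of transcript length in the levels of Lrrc58 was not tested.

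**Figure D4:**
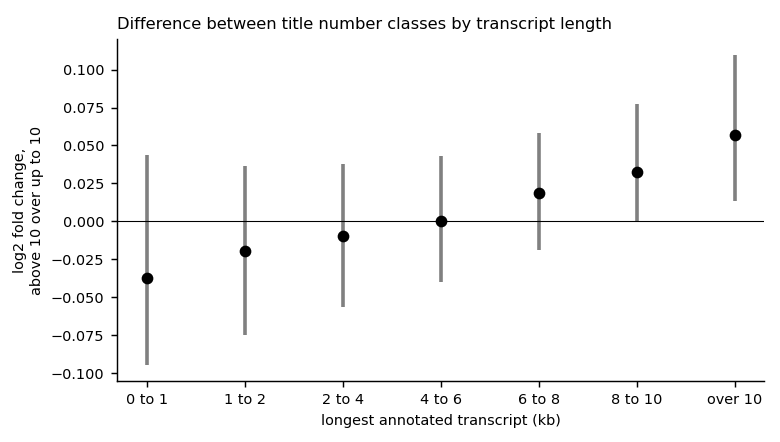
Median log2 fold change between title numbers above 10 and up to 10 (points) with the lower and upper quartiles (lines), for tested genes other than the 5 binned by the length of their longest annotated transcript in kb. The median runs from -0.037 in the shortest bin to 0.057 in the longest.

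The promoters of Lars2 and Malat1 are shown as those of the 2 members, besides Rn45s, whose libraries above and up to 10 did not overlap in CPM. They are RefSeq sequences on GRCm38.p6, from 250 bases before to 50 after the start, at chr9:123366677-123366976 on the plus strand and chr19:5802623-5802922 on the minus strand. Capitals mark the GC box GGGCGG on the printed strand.
Lars2: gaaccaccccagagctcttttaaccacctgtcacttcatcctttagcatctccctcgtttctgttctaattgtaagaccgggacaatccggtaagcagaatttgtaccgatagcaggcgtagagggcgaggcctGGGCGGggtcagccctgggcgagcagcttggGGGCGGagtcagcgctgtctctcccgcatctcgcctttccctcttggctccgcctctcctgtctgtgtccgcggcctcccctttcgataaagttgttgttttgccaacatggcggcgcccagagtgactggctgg
Malat1: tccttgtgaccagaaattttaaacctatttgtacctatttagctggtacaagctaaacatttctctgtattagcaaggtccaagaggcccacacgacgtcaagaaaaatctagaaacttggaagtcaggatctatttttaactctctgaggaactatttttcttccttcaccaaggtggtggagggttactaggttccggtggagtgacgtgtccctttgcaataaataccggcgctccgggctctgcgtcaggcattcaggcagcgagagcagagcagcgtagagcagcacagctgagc
Of 6 motifs searched on both strands, the GC box was found in the Lars2 window only, TATAAA and the E-box CACGTG in that of Lrrc58, and CCAAT in that of 4930488L21Rik. None was found in the Malat1 window and the longer YY1-type and NRF1-type motifs were in none of the 4. Over 32851 RefSeq promoters of the same length, GGGCGG is in 35.7%, CCAAT in 37.4%, TATAAA in 13.6%, CACGTG in 7.2%, the NRF1-type motif in 1.0% and the YY1-type motif in 0.6%. No motif was shared by any pair of the 4 windows.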

How the data were processed

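Poly(A)-enriched, paired-end RNA-seq of 20 mouse brain samples was processed by the authors with cutadapt and RSEM against mm10, as the submitters' processing notes list. The deposited estimated counts per gene and the deposited TPM values are RSEM output; which versions, annotation and strand setting were used is not given in the sources used. RSEM divides reads among the genes they match, so 4.11% of counts were not whole, though all 100 values of the 5 members were. Counts were rounded. Any step that changes how much untailed RNA passes the poly(A) enrichment changes the values of Rn45s and Malat1.

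CPM used TMM factors (0.975 to 1.03). Tests across genes used edgeR 4.0.16 in R 4.3.3 (filterByExpr, robust glmQLFit, glmQLFTest, two-sided, Benjamini-Hochberg, threshold 0.05), on 15050 genes for the title number and 16063 for the 7 groups. Each fit computed its own TMM factors on the genes it kept, so its CPM differ slightly from the members' levels. The scripts were tested on simulated data. Alternatives were limma 3.58.1 on log2(TPM + 1) and log2(TPM + 0.1), DESeq2 1.42.0 and those named at the end.

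The members and the 18 gene lists were chosen with earlier results of these data known. Named by rule were the members, up to 8 non-overlapping genes past the threshold in each direction with a mean of at least 1 log2 CPM, the 8 genes most like Rn45s, and the 2 list members of largest change where a list had none past the threshold; some of the last go unnamed. BLASTN 2.17.0 used an e-value of at most 1e-10 and at least 50 aligned bases; sequences came from GENCODE and RefSeq. No pair of replicates agreed within sampling noise (lowest chi-square per degree of freedom 5.30), so each library counted once. Low counts limit the precision of 4930488L21Rik.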

Additional observations from a re-analysis of the deposited data

Results flagged for a closer look

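Within the 10 libraries above 10 and the 10 up to 10, the gap of the highest or lowest library to its neighbour was set against the range of the class. Of 10 such pairs of transcript and class, 3 stood past the 95% critical value. The pairs are not separate trials, since the transcripts were chosen for a shared pattern and J17b replicate 2 was flagged for Rn45s and Lars2 alike. No rate by chance is therefore set beside the 3. Rn45s in J17b replicate 2, at 54698 CPM, stood far above the next library above 10, at 30554 CPM. Lars2 in the same library, at 1064 CPM, stood as far above the next at 542 CPM. Lrrc58 in Wild type replicate 3, at 189.8 CPM, stood above the next library up to 10, at 164 CPM. What sets these libraries apart was not tested.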

How the results depend on the processing

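The direction of all 5 class differences held under every alternative run. The members were chosen on this contrast in these libraries, so the kept direction is no separate check. Within J17a it rests on replicate 1 as the only library up to 10. With genotype as a term, which leaves J17a alone, the log2 difference was 1.44 for Rn45s, 1.01 for Lars2, 0.14 for Lrrc58, 0.62 for Malat1 and 0.20 for 4930488L21Rik, and 4930488L21Rik fell to 0.92 on log2(TPM + 1), which understates low values. Leaving out each library in turn gave 2.07 to 2.25 for Rn45s, 1.49 to 1.69 for Lars2, 0.25 to 0.31 for Lrrc58, 0.97 to 1.19 for Malat1 and 1.51 to 1.82 for 4930488L21Rik. The 24 genes higher above 10 became 45 by DESeq2 (5 lower), 8 by limma with either pseudocount, 14 without Rn45s in the totals and 0 with genotype as a term, and ran from 10 without J1 lf/lf replicate 3 to 39 without Wild type replicate 3, with 0 to 1 lower (1 without J2 lf/lf replicate 3 or Wild type replicate 3). It was also under 16 without each of J17b replicate 2 (12), J27a replicates 1 (14) and 3 (10), J27b replicates 2 (13) and 3 (14), J17a replicates 1 (12) and 2 (10), J1 lf/lf replicates 1 (14) and 2 (11), J2 lf/lf replicates 1 (10) and 3 (15), and Wild type replicates 1 (15) and 2 (12). The 14 genes differing among the 7 groups became 231 by DESeq2, 3 by limma with either pseudocount, 28 above 10 only and 1 up to 10 only, and ran from 2 without J1 lf/lf replicate 3 to 114 without Wild type replicate 3. It was 3 without J27a replicate 2 or 3, J27b replicate 2 or 3 or J17a replicate 3, 4 without J27b replicate 1 or J2 lf/lf replicate 1, 5 without J27a replicate 1, J1 lf/lf replicate 2 or J2 lf/lf replicate 3, 6 without J2 lf/lf replicate 2, and 8 without J17a replicate 2; the cause was not tested. Of the list genes, 0 of which passed, DESeq2 called 3 (Kcnq1ot1, Rps10, Pomc), and leaving out Wild type replicate 3 called 1 (Rps10). Tcp11l1 and Dpysl2 passed in 27 of 28 alternatives (adjusted p up to 0.848 and 0.584), Hipk2 in 5 (0.00549 to 0.837). With the replicate number as a block 11 genes were higher, but the numbers do not pair the samples: same-numbered libraries correlated between -0.39 and 0.38, with a median of -0.014. Depth limits 4930488L21Rik, at 4 to 84 counts.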

Other observations

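Besides the members, 8 genes had the largest log2 fold changes above 10 over up to 10, chosen after their values were seen, and 5 of the 8 are long noncoding RNAs in RefSeq. They were 9530091C08Rik at 1.92 (SE 0.43, adjusted p = 0.116), Dnm3os at 1.86, Gm20199 at 1.81, Tbrg3 at 1.77 (adjusted p = 0.134) and 4931406H21Rik at 1.72. These 5 were rare, so their fold changes rest on low counts. Their mean levels ran from 0.275 CPM (4931406H21Rik) to 0.890 CPM (9530091C08Rik) up to 10. Above 10 they ran from 0.935 to 3.37 CPM for the same 2 genes. The most abundant of the 8 was Cdr1, at 119 ± 146 CPM above 10 and 33.8 ± 17.3 CPM up to 10 (SD, n = 10 each), with a log2 fold change of 1.82 and SE of 0.44 (adjusted p = 0.201 by edgeR). None of the 8 passed the threshold. In 6 of them J17b replicate 2 was the highest library; without it the ratio of mean CPM was 2.17 for Cdr1, against 3.52 with it, and 2.94 for 9530091C08Rik, against 3.78.

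Members aside, the 469 tested long noncoding RNAs in RefSeq had a median log2 fold change of 0.060, with 64.2% above 0. The 13748 protein-coding genes had -0.0036 and 47.6%. The sets were not matched for level, and J17b replicate 2 was not left out here. A log2 fold change over 1 was seen in 8 of the 469 (1.71%) and 10 of the 13748 (0.073%), and one under -1 in 0 and 13.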
